A study of Mus musculus with 12 samples.

Results

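The 9 genes described here encode transcription factors of epithelial-mesenchymal transition (EMT) and fibroblast activation: the Snail zinc finger factors Snai1 and Snai2, the basic helix-loop-helix (bHLH) factors Twist1 and Twist2, the zinc finger E-box binding factors Zeb1 and Zeb2, the paired-related homeobox factor Prrx1, and the runt-domain factors Runx1 and Runx2. They were taken by gene symbol, 9 of the 40760 genes in the deposited count table, and all 9 passed the filter on low counts that left 17418 genes for testing. The cells were sorted from mouse lung as CD140a+ (Pdgfra+), Pdgfra being the receptor used to gate lung mesenchymal cells, and bulk RNA-seq was done on 12 libraries in 4 groups of 3. Wild-type (WT) and Pear1-/- mice had each received vehicle or bleomycin (bleo), which breaks DNA and scars the lung. The mice were male by the labels and, by the study's general methods, young adults of C57BL/6 background with bleo aerosolized into the trachea. The dose and time for these libraries are not given in the sources used here. Pear1, the platelet endothelial aggregation receptor, was disrupted throughout the animal by a knockout-first allele, a gene-trap cassette in an intron.

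EMT factors of the Snail and Zeb families bind E-box sequences through zinc fingers and repress epithelial genes such as the cadherin gene Cdh1. Twist factors bind related E-boxes as dimers with E proteins, and Id proteins block this by holding the E proteins. In adult lung several of these factors are found in mesenchymal cells. Prrx1 marks mesenchymal progenitors and matrix fibroblasts, Runx2 is the master factor of bone-forming cells, and Runx1 and Zeb2 are also used by blood cells, where Runx1 sets up hematopoietic stem cells and Zeb2 acts in macrophages and dendritic cells.

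The libraries held between 6702948 and 10447101 counts. Pear1 was not called lower in the libraries labelled Pear1-/- under either treatment. The count of Pear1, summed over the whole gene, was 576, 545 and 519 normalised counts in WT vehicle, 511, 501 and 547 in Pear1-/- vehicle, 256, 239 and 266 in WT bleo and 355, 372 and 344 in Pear1-/- bleo. Under bleo it was called higher in Pear1-/- (0.48 ± 0.08, edgeR adjusted p = 7.54e-05). The count does not separate the exons before and after the gene-trap cassette, so how far it bears on the allele is uncertain, but it does not match a loss of the transcript. Pear1-/- stands throughout for the libraries labelled so. In the 2 bleo groups the libraries of a group differed by a chi-square per degree of freedom of 1.35 to 1.49, close to sampling noise. In Pear1-/- vehicle library 3 stood apart, at 4.31 and 4.82 against 1.44 between libraries 1 and 2. The vehicle libraries held 14323 to 20943 genes with 1 to 20 counts and the bleo libraries 8531 to 9193, so genes of low counts were more often read under vehicle. The labels do not say that the libraries of a group came from separate mice, so p-values measure the spread between these libraries, which may be technical.

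The library labelled WT vehicle 2 was unlike the rest of its group and like the libraries labelled Pear1-/- vehicle. Over all genes it differed from WT vehicle libraries 1 and 3 by a chi-square per degree of freedom of 21.2 and 21.8, and these differed from each other by 1.58. From the 3 Pear1-/- vehicle libraries it differed by 1.73, 2.13 and 2.67. WT vehicle libraries 1 and 3 differed from the Pear1-/- vehicle libraries by 23.1 to 27.2. WT vehicle libraries 1 and 3 also had the lowest totals (6702948 and 7036892 counts, against 9115029 in WT vehicle 2). They held 20895 and 20943 genes with 1 to 20 counts, against 16194 in WT vehicle 2 and 14323 to 15660 in Pear1-/- vehicle. The part of depth and of low counts in this split was not tested. The same split was seen in Dcn, a fibroblast proteoglycan, at 40282 normalised counts in the library labelled WT vehicle 2, 19456 and 19833 in WT vehicle libraries 1 and 3, and 39777 to 42200 in Pear1-/- vehicle. Its group is taken from the label, and the factors whose calls changed without it (Snai1, Snai2, Zeb1 and Runx1), and Twist1, are given both ways. The comparison of the 2 bleo groups and that of bleo with vehicle in Pear1-/- do not contrast this library, which enters them only through the shared estimate of the spread.

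Markers of other cells were read in the sorted cells as well. Pdgfra was read in every library (1338 to 4802 normalised counts), but so was Ptprc, the pan-leukocyte gene encoding CD45 (3010 to 7727), and no library was at 0 for either. The summed level of 29 leukocyte markers was 4977 to 6553 CPM, counts scaled to the library total, in WT vehicle, 6391 to 6917 in Pear1-/- vehicle, 26251 to 26588 in WT bleo and 11083 to 11323 in Pear1-/- bleo. The summed level of 15 fibroblast markers was 37117 to 38349, 35852 to 38314, 12730 to 12896 and 28727 to 29521 CPM in the same groups. Without Col1a1 and Col1a2 the sum of the other 13 was 30635 to 31738, 30325 to 32368, 5374 to 5471 and 6133 to 6263 CPM, so most of the gap between the bleo groups was in these 2 collagen genes. In bulk samples fewer cells of a type and less RNA per cell cannot be told apart.

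The genes differ in architecture (GRCm38 build, GENCODE M21 annotation). Snai1 (chr2:167538195-167542814), Snai2 (chr16:14705852-14709385) and Twist1 (chr12:33957671-33959829) are compact, with 1621, 2021 and 1628 exonic bases and 1 annotated transcript each. Zeb2 (chr2:44983632-45117395) spans 133764 bases and has 29 annotated transcripts. Runx1 (chr16:92601466-92826149) spans 224684 bases and Runx2 (chr17:44495987-44814797) spans 318811. Prrx1 (chr1:163245119-163313710) and Twist2 (chr1:91801461-91848028) share chromosome 1, with 5 and 2 annotated transcripts. Zeb1 has 12 annotated transcripts and 10266 exonic bases. Zeb2os overlaps Zeb2 on the other strand and had 155 reads over all 12 libraries. Supt3 overlaps Runx2 on the other strand (1455 reads), as Gm26626 does Runx1 (140) and Gm10125 does Zeb1 (484), and Gm26523 lies in Prrx1 on the same strand (610). The library kit does not mark strand, so reads from the overlapping parts of such pairs cannot be told apart.

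The stretches of start-site sequence below are shown because 3 members carry, within their own promoters, the letters that Snail, Zeb or Runx proteins are known to bind. The RefSeq promoter windows (GRCm38.p6, 250 bases before to 50 after each start) held 11 starts for 7 of the 9 members. On both strands, CAGGTG, the E-box of Snail and Zeb factors, was found in the window of Snai1 and in the distal window of Runx1, and 20.2% of all 32851 windows hold it. The Runx letters TGTGGT were found in the distal Runx1 window and in the Runx2 window, and 16.8% of all windows hold them at least once. In the Runx2 window the matches at -80 and 32 each overlap a CANNTG match. The general E-box CANNTG, which includes CAGGTG, was in the same 3 windows and is in 72.3% of all. Capitals mark the motif as read on the gene's strand, where CACCTG is CAGGTG and ACCACA is TGTGGT on the other strand. The Snai1 stretch and the Runx1 stretch at -136 lie upstream of the annotated gene and the others in an annotated exon, and positions count from 1 at the RefSeq start with negative numbers before it.
Snai1, position -126, chr2:167538057-167538086, plus strand: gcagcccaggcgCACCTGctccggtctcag
Runx1, position -136, chr16:92826193-92826222, minus strand: cctgggggagggCAGGTGgagggcaggaag
Runx1, positions 29 and 37, chr16:92826025-92826054, minus strand: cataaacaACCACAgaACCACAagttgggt
Runx2, positions 24 and 32, chr17:44814583-44814612, minus strand: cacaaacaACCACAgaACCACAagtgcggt
Runx2, position -80, chr17:44814690-44814719, minus strand: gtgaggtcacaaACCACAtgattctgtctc
The Runx1 and Runx2 stretches after the start share the same pair of ACCACA letters at the same spacing. Windows with at least 2 such matches are 1.81% of all windows. The windows of Twist1, Twist2, Zeb2, Prrx1 and the other Runx1 start held none of these letters. A match is a description, not a binding site, and the counts per gene do not separate the starts of Runx1.

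Levels were compared between genes as RPKM, reads per kilobase of exon scaled to the library total. In WT vehicle Snai1 led at 21.9 ± 2.65 (SD, n = 3). Zeb1 (10.02 ± 0.634), Zeb2 (9.74 ± 1.80) and Snai2 (8.76 ± 2.03) came next and did not differ beyond their spread. Prrx1 (5.66 ± 0.620), Runx1 (4.59 ± 0.213), Twist2 (2.28 ± 0.0990), Runx2 (1.65 ± 0.178) and Twist1 (0.127 ± 0.0651) followed without overlap between the libraries of neighbours. In Pear1-/- vehicle the order was Snai1 (22.3), Snai2 (10.5), Zeb1 (10.1), Zeb2 (8.27), Prrx1 (5.51), Runx1 (5.02), Twist2 (2.07), Runx2 (1.26) and Twist1 (0.258), where Snai2 overlapped both Zeb1 and Zeb2, and Prrx1 overlapped Runx1.

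The order under bleo was different. In WT bleo Snai1 (30.6 ± 1.71) was followed by Runx1 (15.8 ± 0.194) and Zeb2 (15.3 ± 0.0167), then by Snai2 (6.06), Prrx1 (4.47) and Zeb1 (4.38), the last 2 overlapping, and by Runx2 (2.23), Twist2 (0.662) and Twist1 (0.229). In Pear1-/- bleo Snai1 stood at 92.2 ± 0.584, far above Snai2 (11.2 ± 0.893), Runx1 (11.1 ± 0.205) and Zeb2 (11.02 ± 0.227), which overlapped. Prrx1 (8.59), Zeb1 (4.68), Runx2 (3.18), Twist1 (1.12) and Twist2 (0.571) came after them without overlap. Twist1 thus stood above Twist2 in Pear1-/- bleo and below it in the other groups. Divided by the longest transcript instead of all exons, the group means of Zeb2 (33.5) and Runx1 (32.3) stood above that of Snai1 in WT bleo. The highest Snai1 library of that group was at 32.5, above the Runx1 mean. The order moved since Zeb2 and Runx1 have long exonic sequences that no single transcript carries. By group mean Snai1 led in the other 3 groups.

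**Figure D1:**
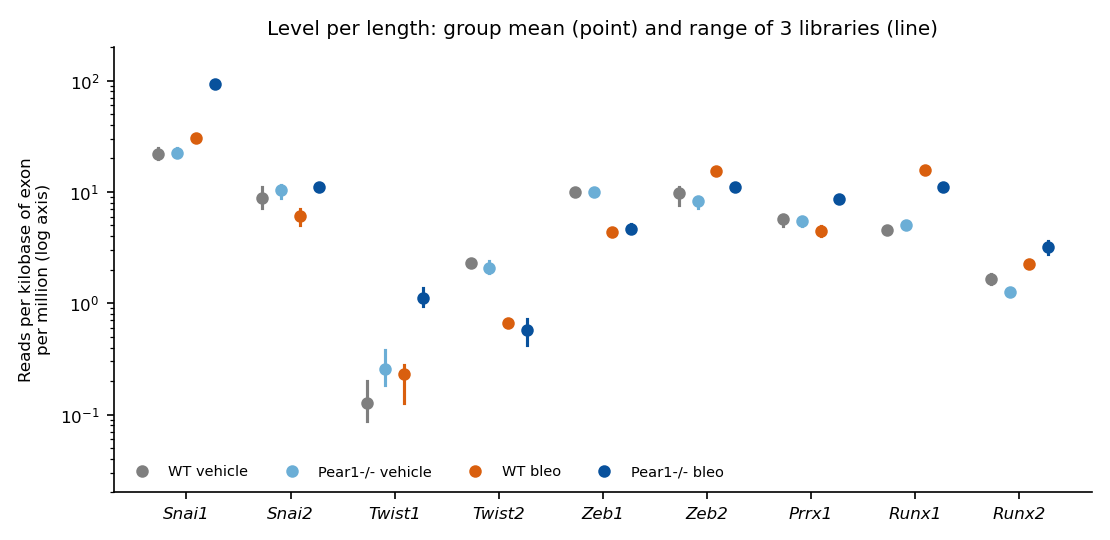
RPKM on a log axis for each factor, with a point for the mean of a group and a line for the range of its 3 libraries. Snai1 reaches 92.2 in Pear1-/- bleo, and Twist1 stays at or below 1.37 in every library.

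Groups that do not overlap were common: the 3 libraries of each group were apart in 62.9% of all genes between the bleo groups, and in 68.7% and 70.9% for bleo against vehicle in WT and in Pear1-/-, against 19.2% between the vehicle groups. Each library is given below in normalised counts, the deposited count divided by the library's size factor, in the order of libraries 1, 2 and 3. Differences are log2 fold changes ± SE from edgeR's quasi-likelihood test over all 12 libraries, with p adjusted over the 17418 genes. In WT, bleo raised 4 of the 9 factors and lowered 4, where 31.4% of all genes tested were called higher and 36.5% lower. In Pear1-/- libraries bleo raised 6 and lowered 2, against 29.1% and 33.1% of all genes. Among genes with a mean log2 CPM of 6 and above, 49.9% were called higher and 28.2% lower in WT. In Pear1-/- these shares were 43.7% and 28.7%. Of the 17418 genes, 8332 were called in both comparisons. The median log2 fold change of the 9 factors was 0.53 in WT and 0.58 in Pear1-/-, and that of all genes was -0.07 and -0.05.

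Under bleo, the libraries labelled Pear1-/- were higher than WT in 5 of the 9 factors (Snai1, Snai2, Twist1, Prrx1, Runx2) and lower in 2 (Zeb2, Runx1), with 22.1% of all genes called higher and 24.0% lower. Calls were more common at high levels, with 32.8% called higher and 29.5% lower among genes with a mean log2 CPM of 6 and above. The median log2 fold change was 0.50 over the 9 factors and -0.01 over all genes. Under vehicle none of the 9 passed in either direction, while 1.95% of all genes were called higher and 5.29% lower by edgeR. At an unadjusted p under 0.05, 2 of the 9 passed by edgeR, Snai2 and Runx1, both higher in Pear1-/- vehicle, where 31.4% of all 17418 genes did (14.3% higher and 17.1% lower). DESeq2 called 1 of them, Runx1, after adjustment. Without the library labelled WT vehicle 2, Snai1, Snai2, Zeb1 and Runx1 were called higher, 4 of 9, where 25.5% of the 20405 genes then tested were called higher and 29.7% lower. Without any 1 of the other 5 vehicle libraries, and with only the vehicle groups fitted, 0 genes of the whole table were called by edgeR, so the calls under vehicle, and their absence, followed the whole table. The bleo effect itself differed between the genotypes for 5 factors, upward in Pear1-/- for Snai1, Prrx1 and Runx2 and downward for Zeb2 and Runx1. For this interaction 17.8% of all genes were called upward and 19.3% downward. With library totals alone as the scaling the split of all genes became 4069 upward and 2509 downward for the interaction, from 3109 and 3353, and 139 higher and 2049 lower for the vehicle comparison, from 340 and 921. Upper-quartile scaling gave 206 higher and 1436 lower under vehicle.

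The bleo effects in WT held their direction for all 9 factors without the library labelled WT vehicle 2 and also without WT vehicle libraries 1 and 3, an alternative chosen after seeing the data. In that order of alternatives the WT effect was 2.03 and 1.67 for Runx1, 0.72 and 0.96 for Zeb2, -0.93 and -1.33 for Zeb1, and 0.62 and 0.60 for Snai1. The 5 interaction calls were also kept. The interaction was 1.35 and 1.41 for Snai1, 0.78 and 0.79 for Prrx1, 0.68 and 0.73 for Runx2, -0.96 and -0.57 for Runx1, and -0.38 and -0.59 for Zeb2. The size of the Runx1 and Zeb2 values thus moved with the choice of WT vehicle libraries more than that of Snai1.

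**Figure D2:**
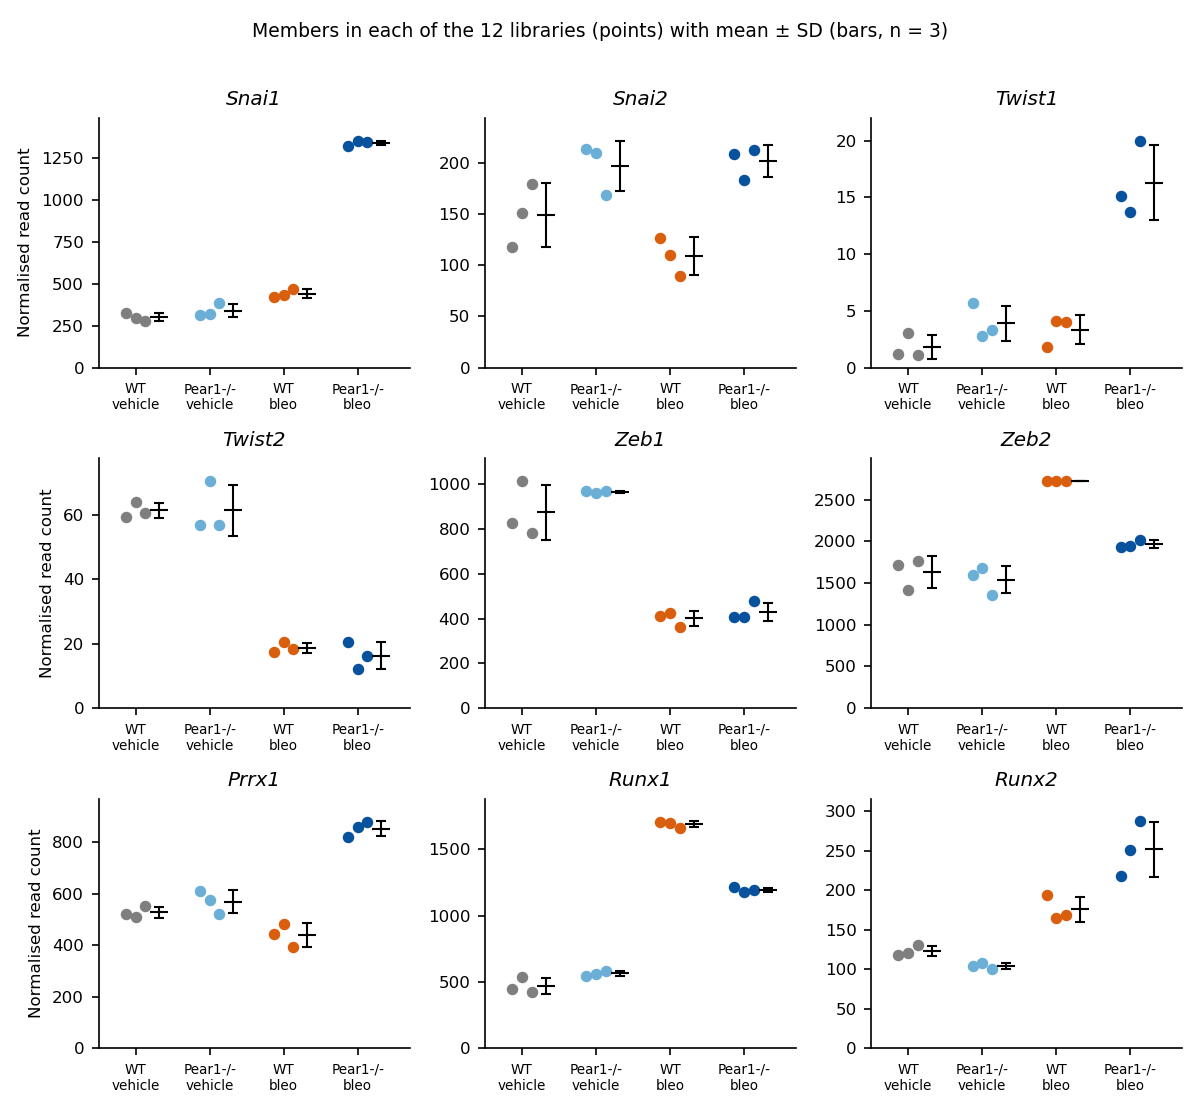
Normalised read counts of the 9 factors, 1 point per library and 1 panel per gene with its own axis from 0, with the mean ± SD of each group (n = 3) beside the points. Snai1, Twist1, Prrx1 and Runx2 have all 3 Pear1-/- bleo libraries above every other library, and Runx1 and Zeb2 have all 3 WT bleo libraries above every other library.

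Snai1, a repressor of Cdh1 induced early in EMT and by TGFβ, had the smallest p of the 9 between the bleo groups. Snai1 read 326, 293 and 278 in WT vehicle, 315, 317 and 384 in Pear1-/- vehicle, 421, 434 and 468 in WT bleo and 1322, 1351 and 1342 in Pear1-/- bleo. All 3 bleo libraries of each genotype lay above their vehicle libraries, and the 2 bleo groups did not overlap. The rise with bleo was 0.57 ± 0.09 in WT (edgeR adjusted p = 1.50e-05) and 1.99 ± 0.09 in Pear1-/- (edgeR adjusted p = 3.10e-13), a 3.97-fold change against 1.49-fold. Pear1-/- bleo was 3.01-fold above WT bleo, 1.59 ± 0.08 on the log2 scale (edgeR adjusted p = 2.03e-11), the 91st smallest p of all genes tested. The difference of the 2 bleo effects was 1.42 ± 0.12 (edgeR adjusted p = 5.50e-08). Under vehicle the genotypes differed by 0.17 ± 0.09, which did not pass (edgeR adjusted p = 0.194), and passed at 0.23 (adjusted p = 0.0358) only without the library labelled WT vehicle 2.

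Snai2 (Slug), a relative that also represses Cdh1 and marks neural crest, behaved otherwise. It read 118, 151 and 180 in WT vehicle, 214, 209.7 and 169 in Pear1-/- vehicle, 127, 110.1 and 90.1 in WT bleo and 209.6, 184 and 213 in Pear1-/- bleo. Both groups labelled Pear1-/- sat at the same height, and the WT bleo libraries were below them without overlap. Pear1-/- bleo was 1.83-fold above WT bleo, 0.87 ± 0.15 (edgeR adjusted p = 9.08e-05). In Pear1-/- libraries the bleo change was 0.03 ± 0.14 (edgeR adjusted p = 0.857).

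In WT, bleo lowered Snai2 by -0.44 ± 0.16 (edgeR adjusted p = 0.0182), with libraries of the 2 groups overlapping. This call was lost without WT vehicle library 3 (adjusted p = 0.127), WT bleo library 2 (0.0591) or WT bleo library 3 (0.144), and with no filter on low counts (0.0515). Under vehicle the genotypes differed by 0.40 ± 0.15 (edgeR adjusted p = 0.0846), and by 0.48 (adjusted p = 0.00341) without the library labelled WT vehicle 2. The interaction was 0.47 ± 0.21 and did not pass (edgeR adjusted p = 0.0853). It passed with upper-quartile scaling (0.0462), with library totals alone (0.0362) and without WT vehicle library 1 (0.0237).

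Twist1, a bHLH factor of mesoderm and of EMT, was close to the limit of what these libraries can count. The raw counts were 1, 3 and 1 in WT vehicle, 6, 3 and 3 in Pear1-/- vehicle, 2, 4 and 4 in WT bleo, and 17, 16 and 21 in Pear1-/- bleo. The 3 Pear1-/- bleo libraries were above all other libraries. Summed over 3 libraries, Pear1-/- bleo had 54 reads and WT bleo 10, a ratio of 4.92 after depth with an exact 95% interval of 2.48 to 10.8 that covers counting error only. Against the 12 reads of Pear1-/- vehicle the ratio was 4.29 (2.27 to 8.81).

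The edgeR test on Twist1 gave 2.25 ± 0.51 between the genotypes under bleo (adjusted p = 0.00124) and 2.02 ± 0.49 for bleo in Pear1-/- (adjusted p = 0.00156). In WT the 10 reads of bleo against 5 of vehicle gave a ratio of 1.68 (0.523 to 6.26), so these reads did not tell a rise from a fall. Of the 5 vehicle reads, 3 were in the library labelled WT vehicle 2, and the edgeR value moved from 0.80 to 1.46 without it (adjusted p = 0.177) and to 0.12 without WT vehicle libraries 1 and 3 (adjusted p = 0.926). The interaction, 1.22 ± 0.96 (edgeR adjusted p = 0.340), did not pass, and was 0.54 without the library labelled WT vehicle 2. The vehicle difference of 1.03 ± 0.71 became 1.70 without it and passed in neither case (edgeR adjusted p = 0.323 and 0.126).

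Twist2, the paralog found in dermis and in mesenchymal precursors, went the other way. It read 59.4, 63.9 and 60.7 in WT vehicle, 56.8, 70.5 and 56.7 in Pear1-/- vehicle, 17.5, 20.4 and 18.2 in WT bleo and 20.4, 12.03 and 16.2 in Pear1-/- bleo. Every bleo library was below every vehicle library. Bleo lowered it to 0.308 of the vehicle level in WT (-1.70 ± 0.23, edgeR adjusted p = 2.38e-06) and to 0.266 in Pear1-/- (-1.91 ± 0.23, edgeR adjusted p = 6.47e-07). Between the genotypes under bleo the difference was -0.22 ± 0.26 (edgeR adjusted p = 0.534), and the interaction was -0.21 ± 0.33 (edgeR adjusted p = 0.647). In Pear1-/- bleo, Twist1 was thus above and Twist2 below its vehicle level.

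Zeb1, a repressor of epithelial genes and of the miR-200 family, fell with bleo in both genotypes. It read 828, 1016 and 781 in WT vehicle, 971, 961 and 970.2 in Pear1-/- vehicle, 411, 426 and 363 in WT bleo and 405, 408 and 478 in Pear1-/- bleo. The vehicle and bleo libraries were separate and the 2 bleo groups overlapped. The change was -1.12 ± 0.09 in WT (edgeR adjusted p = 5.07e-09) and -1.17 ± 0.09 in Pear1-/- (edgeR adjusted p = 3.28e-09). Under bleo the genotypes differed by 0.09 ± 0.10 (edgeR adjusted p = 0.465). The interaction of -0.05 ± 0.13 did not pass (edgeR adjusted p = 0.812), but without the library labelled WT vehicle 2 it was -0.25 (adjusted p = 0.0364) and the vehicle difference was 0.33 (adjusted p = 9.83e-05).

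Fibroblast markers fell with Twist2 and Zeb1. With bleo 13 of the 15 were called lower and 2 higher in WT, and 10 lower and 4 higher in Pear1-/- (edgeR). Pdgfra read 4195 to 4802 in WT vehicle and 1338 to 1394 in WT bleo, and 4125 to 4203 in Pear1-/- vehicle and 2370 to 2403 in Pear1-/- bleo. The part of these markers in the Twist2 and Zeb1 falls was not tested.

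Zeb2, whose product binds the same E-boxes and Smad proteins, rose where Zeb1 fell. It read 1715, 1414.5 and 1763 in WT vehicle, 1589.9, 1674 and 1354 in Pear1-/- vehicle, 2723, 2719 and 2719 in WT bleo and 1933, 1948 and 2019.8 in Pear1-/- bleo. WT bleo was above every other library, and Pear1-/- bleo was above the vehicle libraries. The rise with bleo was 0.75 ± 0.09 in WT (edgeR adjusted p = 4.25e-07) and 0.36 ± 0.09 in Pear1-/- (edgeR adjusted p = 0.00157). Pear1-/- bleo was 0.717 of WT bleo (-0.48 ± 0.09, edgeR adjusted p = 0.000150). The interaction of -0.39 ± 0.12 passed (edgeR adjusted p = 0.0173), but not with upper-quartile scaling (0.0802) or library totals alone (0.269).

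Prrx1, a homeobox factor of limb and craniofacial mesenchyme that also marks matrix fibroblasts, changed direction with the genotype. It read 523, 509 and 552 in WT vehicle, 612, 576 and 521 in Pear1-/- vehicle, 445, 482 and 393 in WT bleo and 819.6, 858 and 877 in Pear1-/- bleo. The Pear1-/- bleo libraries were above and the WT bleo libraries below all vehicle libraries. Pear1-/- bleo was 1.92-fold above WT bleo, 0.94 ± 0.08 (edgeR adjusted p = 2.36e-08), and 0.58 ± 0.08 above Pear1-/- vehicle (edgeR adjusted p = 5.54e-06).

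The fall of Prrx1 with bleo in WT was small, -0.25 ± 0.08 (edgeR adjusted p = 0.0134). It was not called without WT vehicle library 3 (adjusted p = 0.0520), WT bleo library 1 (0.0739), WT bleo library 3 (0.218) or WT vehicle libraries 1 and 3 together (0.101), or with no filter on low counts (0.369). The interaction, 0.83 ± 0.12 (edgeR adjusted p = 1.92e-05), passed under every setting run.

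Runx1, the runt factor of blood stem cells that is also expressed in injured mesenchyme, had the highest rise of the 9 in WT. It read 445, 536 and 426 in WT vehicle, 548, 562 and 583 in Pear1-/- vehicle, 1702, 1698 and 1661 in WT bleo and 1211, 1180.2 and 1189.6 in Pear1-/- bleo. No group overlapped another: WT vehicle was lowest, then came Pear1-/- vehicle, and WT bleo was highest. The change with bleo was 1.86 ± 0.08 in WT, a 3.62-fold rise (edgeR adjusted p = 1.57e-13), and 1.08 ± 0.08 in Pear1-/-, a 2.12-fold rise (edgeR adjusted p = 5.43e-10). Pear1-/- bleo stood at 0.701 of WT bleo (-0.51 ± 0.07, edgeR adjusted p = 1.46e-05), and the interaction was -0.77 ± 0.11 (edgeR adjusted p = 1.92e-05). Under vehicle the difference of 0.26 ± 0.08 had an adjusted p of 0.0513 by edgeR and 0.0453 by DESeq2, and was 0.44 (adjusted p = 2.39e-06) without the library labelled WT vehicle 2.

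Many leukocyte markers moved with Runx1 and Zeb2, but not in every comparison. In WT bleo 21 of the 29 markers were called higher than in WT vehicle and 6 lower, and in Pear1-/- bleo 24 were lower than in WT bleo and 0 higher (edgeR), with 5 not called. With bleo in Pear1-/-, where both factors rose, 17 of the 29 were called higher and 9 lower. Ptprc read 7542 to 7727 in WT bleo and 3241 to 3448 in Pear1-/- bleo. In Pear1-/- vehicle Ptprc read 3520 to 4016, so it did not rise with bleo in Pear1-/- as Runx1 and Zeb2 did. The part of leukocyte RNA in the Runx1 and Zeb2 differences was not tested.

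**Figure D3:**
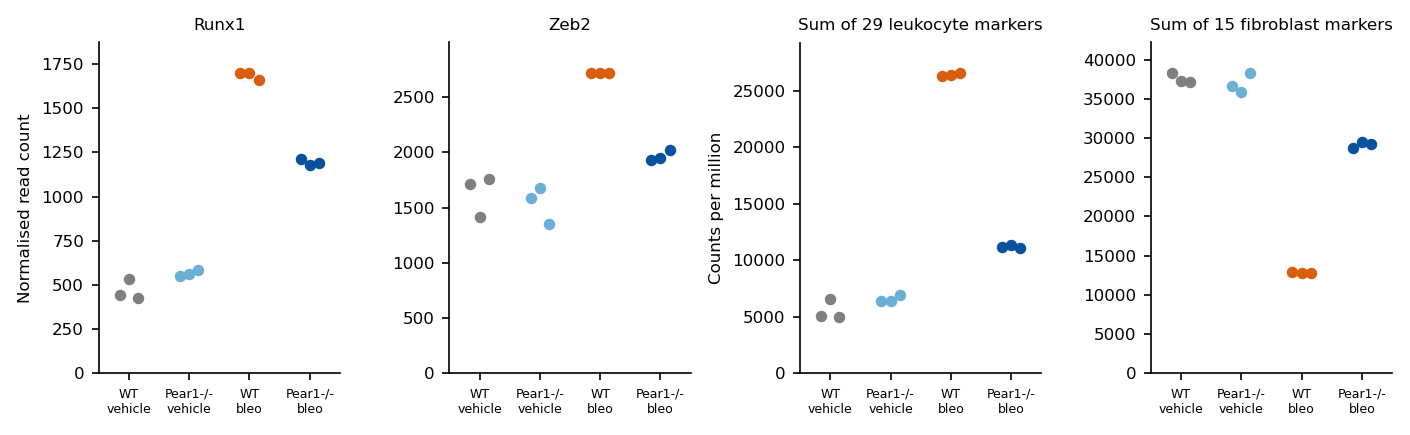
Runx1 and Zeb2 in normalised counts beside the summed level of 29 leukocyte and 15 fibroblast markers in CPM, with 1 point per library and axes from 0. WT bleo has the highest leukocyte sum (26251 to 26588 CPM) together with the highest Runx1 and Zeb2, and the lowest fibroblast sum.

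Runx2, the factor of osteoblast differentiation, rose in both genotypes and more in Pear1-/-. It read 118, 121 and 131 in WT vehicle, 104, 108 and 100.4 in Pear1-/- vehicle, 194, 165 and 168 in WT bleo and 218, 251 and 287 in Pear1-/- bleo. None of the 4 groups overlapped another, and Pear1-/- vehicle was lowest. The rise was 0.53 ± 0.12 in WT (edgeR adjusted p = 0.000822) and 1.27 ± 0.12 in Pear1-/- (edgeR adjusted p = 2.42e-08). Pear1-/- bleo was 1.42-fold above WT bleo (0.50 ± 0.11, edgeR adjusted p = 0.00103), and the interaction was 0.75 ± 0.17 (edgeR adjusted p = 0.00199). Runx1 and Runx2 thus differed between the genotypes in opposite directions under bleo.

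**Figure D4:**
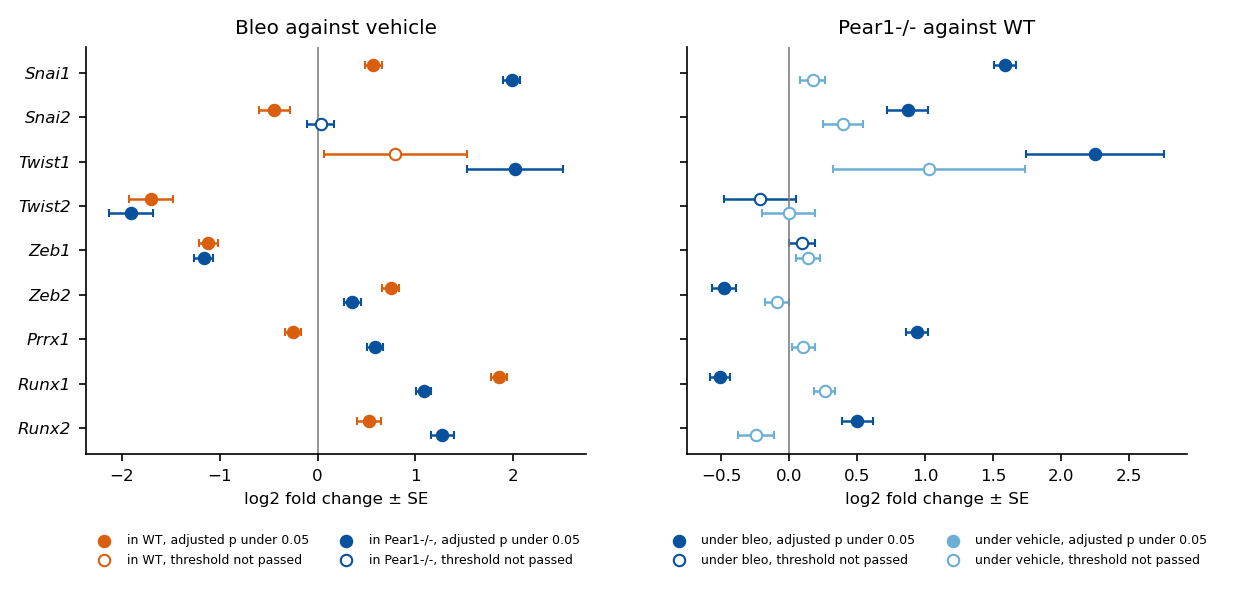
log2 fold changes ± SE of the 9 factors for bleo against vehicle in each genotype (left) and for Pear1-/- against WT under each treatment (right), with filled points for adjusted p under 0.05. Under bleo, Snai1 (1.59), Snai2 (0.87), Twist1 (2.25), Prrx1 (0.94) and Runx2 (0.50) are filled to the right of 0 and Zeb2 (-0.48) and Runx1 (-0.51) to the left.

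Some fibroblast and smooth muscle markers were also higher in Pear1-/- bleo, where Snai1, Snai2, Twist1, Prrx1 and Runx2 were. Between the bleo groups 7 of the 15 fibroblast markers were called higher in Pear1-/- bleo and 3 lower, and their summed level was 28727 to 29521 against 12730 to 12896 CPM. Without Col1a1 and Col1a2 the sum was 6133 to 6263 against 5374 to 5471 CPM. The smooth muscle and pericyte markers summed to 1524 to 1541 in Pear1-/- bleo and 556 to 561 CPM in WT bleo, with 5 of 10 called higher and 1 lower. Acta2 (2667 to 2733 in WT bleo, 7754 to 7846 in Pear1-/- bleo, normalised counts) and Des (908 to 939 and 3288 to 3424) carried most of this sum, while the pericyte gene Rgs5 overlapped (29.4 to 42.8 and 28.4 to 37.8). Of the fibroblast markers, Gsn (20813 to 21554 and 17948 to 18665), Col14a1 and Pi16 were lower. The part of these markers in the higher Snai1, Snai2, Twist1, Prrx1 and Runx2 was not tested. The epithelial sum was 798 to 812 CPM in Pear1-/- bleo and 1831 to 1859 in WT bleo, the endothelial sum 304 to 324 and 292 to 307, and the mesothelial sum 42.1 to 45.7 and 22.6 to 23.9.

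For each factor the 3 genes with the most similar profile were found by Pearson's r of log2 CPM over the 12 libraries among 10447 genes. These values describe 12 points that fall in 4 groups. Snai1 was closest to Actg2, a smooth muscle actin (r = 0.996), Lgals1, a galectin (0.996), and Tmsb10, which binds actin (0.993). Actg2 itself read 203 to 245 in WT vehicle, 323 to 329 in WT bleo and 791 to 836 in Pear1-/- bleo. Runx1 was closest to Ms4a6c (0.998), Fgr, a myeloid kinase (0.998), and Ctsa, a lysosomal protease (0.997). Zeb2 was closest to Gm6377 (0.994), Atp2b1 (0.991) and Zfand5 (0.990). Zeb1 was closest to Mmp3 (0.994), Tspan18 (0.993) and Cpq (0.991).

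Prrx1 was closest to Dclk1 (0.974), Stt3a (0.970) and Chst15 (0.967). Runx2 was closest to Hspa4 (0.979), Pdap1 (0.976) and Hmgb3 (0.974). The genes nearest to Twist2 were Foxp2 (0.988), Ctso (0.987) and Aspa (0.987), and those nearest to Twist1 were Ier3 (0.962), Fam180a (0.962) and Blmh (0.960). The weakest neighbours were those of Snai2, Alkbh8 (0.944), 2610044O15Rik8 (0.937) and Trnt1 (0.926).

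Of the other members of these families, 2 of the 5 in the table passed the filter. Prrx2, the paralog of Prrx1, read 45.6 to 49.6 in WT bleo and 107 to 114 in Pear1-/- bleo (1.18 ± 0.17, edgeR adjusted p = 1.14e-05). Runx3, the lymphocyte runt factor, read 675 to 720.0 and 379 to 409 (-0.84 ± 0.08, edgeR adjusted p = 5.38e-08). Prrx2 thus shared the direction of Prrx1 and Runx3 that of Runx1. Snai3, below the filter, had at most 16.98 normalised counts in any library.

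Among 10 partners (E proteins, the Runx partner Cbfb and corepressors), 4 were higher and 5 lower in Pear1-/- bleo than in WT bleo. The shares of all genes there were 22.1% and 24.0%. The corepressors Ctbp1 (-0.77 ± 0.08), which binds Zeb proteins, Rcor1 (-0.68 ± 0.13) and Kdm1a (-0.63 ± 0.11), which act with Snai1, were lower, and Hdac2 (0.43 ± 0.08) was higher. With bleo in WT, 6 of the 10 were higher and 1 lower, led by Rcor1 (1.23 ± 0.13) and Kdm1a (1.06 ± 0.12), and Cbfb rose by 0.86 ± 0.11. With bleo in Pear1-/-, 6 were called higher and 1 lower, led by Kdm1a (0.56 ± 0.12), Ctbp2 (0.50 ± 0.11) and Tcf3 (0.49 ± 0.08), and not all were the genes called in WT. All genes were called higher in 31.4% in WT and 29.1% in Pear1-/-.

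All 4 Id genes were called between the bleo groups, where 22.1% of all genes were called higher and 24.0% lower. Id1 (0.73 ± 0.11) and Id3 (0.71 ± 0.08) were higher in Pear1-/- bleo, Id2 (-0.33 ± 0.06) and Id4 (-0.96 ± 0.38) lower. Id1 was 145 to 159.8 in WT bleo, 238 to 267 in Pear1-/- bleo and 257 to 354 in WT vehicle. It was 402 to 444 in Pear1-/- vehicle, so bleo lowered it in Pear1-/- as well (-0.74 ± 0.10, edgeR adjusted p = 4.57e-06), as in WT (-0.99 ± 0.11, edgeR adjusted p = 2.83e-07). Under vehicle Id1 was also called higher in Pear1-/- (0.48 ± 0.10, edgeR adjusted p = 0.0292). Like the other vehicle calls, this one did not hold when some single libraries were left out.

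Of 6 epithelial regulators that oppose these factors and passed the filter, 5 fell with bleo in WT and 5 in Pear1-/-, and 0 rose (edgeR), where 36.5% and 33.1% of all genes fell. Of the 6, 4 have a mean log2 CPM of 0 to 2, and among all genes of that level the share called lower was 44.4% in WT and 36.5% in Pear1-/-. Between the bleo groups Ehf (-2.11 ± 0.25) and Esrp2 (-0.87 ± 0.24) were lower and Elf3 (1.04 ± 0.33) higher in Pear1-/- bleo. Ehf read 36.4 to 49.0 in WT bleo and 7.99 to 11.4 in Pear1-/- bleo. The bleo change of Grhl2, an epithelial master factor, was -2.97 ± 0.37 in WT and -3.11 ± 0.36 in Pear1-/-, from at least 37.8 to at most 8.60 normalised counts. The epithelial marker sum moved the same way, and its part was not tested.

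EMT readout genes split in both directions between the bleo groups, where 22.1% of all genes were called higher and 24.0% lower. Of 16, 6 were higher and 2 lower in Pear1-/- bleo than in WT bleo, led by Cldn7, a tight junction claudin (-1.65 ± 0.23), Sparc (1.096 ± 0.05), Fn1, fibronectin (1.03 ± 0.18), and Cdh11, a mesenchymal cadherin (0.67 ± 0.10). Fn1 read 1607 to 2838 in WT vehicle, 14874 to 15115 in WT bleo and 30505 to 31531 in Pear1-/- bleo. Cdh1, the classical target repressed by Snail and Zeb factors, read 131 to 179.6 in WT vehicle, 144 to 173 in Pear1-/- vehicle, 253 to 327 in WT bleo and 361 to 397 in Pear1-/- bleo. With bleo Cdh1 rose by 0.90 ± 0.12 in WT (edgeR adjusted p = 2.45e-06) and by 1.26 ± 0.12 in Pear1-/- (edgeR adjusted p = 2.26e-08), and these effects did not pass the test of their difference (edgeR adjusted p = 0.105). The Pear1-/- bleo libraries of Cdh1 lay above those of WT bleo without overlap, the same direction as Snai1. The bleo groups were apart in 62.9% of all genes.

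Other mesenchymal activation factors numbered 23 tested. In Pear1-/- bleo 10 were higher and 5 lower than in WT bleo, against 22.1% and 24.0% of all genes. Foxm1, a factor of cycling cells, was higher (0.99 ± 0.15) and Pparg, a factor of lipofibroblasts and alveolar macrophages, lower (-1.94 ± 0.18). Hmga2 read 1.01 to 2.04 in WT bleo and 11.5 to 19.8 in Pear1-/- bleo, and Tbx18 read 0 to 4.05 and 8.60 to 15.1, both with few reads. Hmga2 and Tbx18 also read 13.3 and 22.9, and 16.98 and 19.5, in WT vehicle libraries 1 and 3, against 0 and 1.01 in the library labelled WT vehicle 2.

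Of 6 tested Runx2 and osteogenic targets, 2 were higher and 2 lower in Pear1-/- bleo than in WT bleo. Of all genes, 22.1% and 24.0% were. Spp1, the matrix protein osteopontin, read 27335 to 28190 in WT bleo and 86045 to 89373 in Pear1-/- bleo (1.65 ± 0.07). Dmp1 read 2.02 to 3.67 and 26.6 to 42.9. Mmp13, the collagenase, was lower (-1.40 ± 0.09), and Ibsp, at 35.8 to 47.6 and 30.2 to 43.8, overlapped. The bleo change of Alpl, bone alkaline phosphatase, was -2.18 ± 0.11 in WT and -2.22 ± 0.12 in Pear1-/-.

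Of the matrix genes of activated fibroblasts, all 10 were higher in Pear1-/- bleo than in WT bleo, against 22.1% of all genes. Their median log2 fold change was 1.39. Cthrc1, which marks activated lung fibroblasts, read 470.2 to 508 and 2476 to 2551 (2.34 ± 0.15), and Col1a1, the type I collagen chain, 42433 to 42504 and 138603 to 144439 (1.73 ± 0.05). In WT 6 of the 10 rose with bleo and 2 fell. In Pear1-/- 10 of 10 rose. This list shares Col1a1 and Col1a2 with the fibroblast markers, and Acta2 and Tagln with the smooth muscle and pericyte markers.

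**Figure D5:**
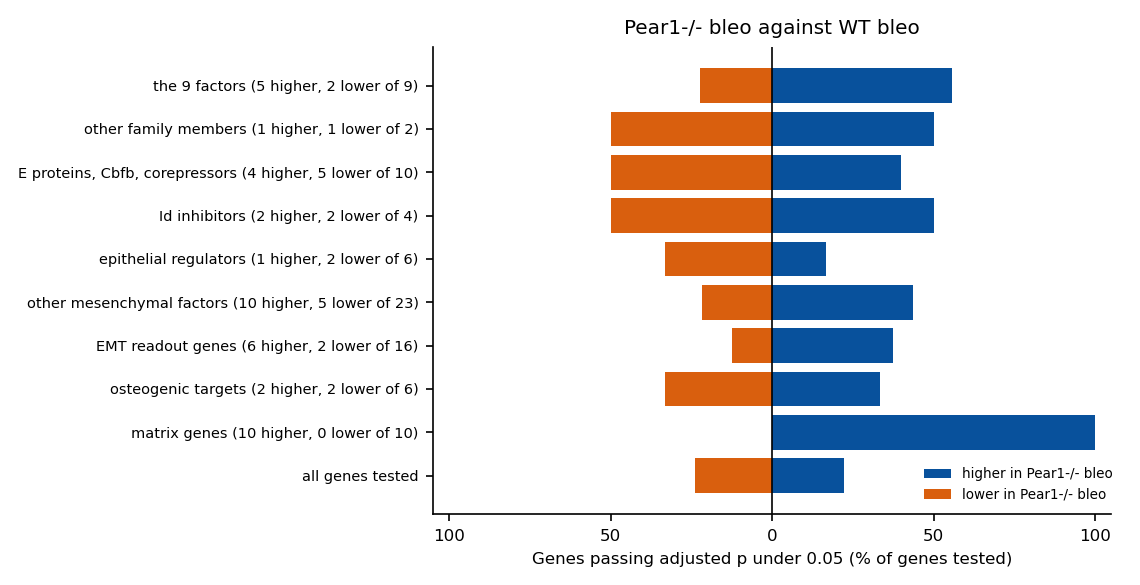
Share of the tested genes of each list called higher (right) or lower (left) in Pear1-/- bleo than in WT bleo, in percent, with the counts beside each name and all 17418 genes tested in the bottom bar. Matrix genes are higher in 10 of 10, the 9 factors in 5, and all genes in 22.1%.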

How the data were processed

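CD140a+ cells were sorted from lung by flow cytometry, and full-length cDNA libraries (SMART-Seq v4) were sequenced. The authors aligned reads to GRCm38 (mm10) with HISAT2 and deposited raw read counts per gene. The counting program is not given in the sources used here. The authors also deposited normalized values (a linear signal), which equal count divided by the DESeq2 size factor. These were printed as normalised counts. Counts were tested with edgeR 4.0.16 (R 4.3.3), using TMM scaling, filterByExpr, a robust quasi-likelihood fit with 1 mean per group, and Benjamini-Hochberg adjustment (threshold 0.05). DESeq2 1.42.0 and limma 3.58.1 were alternatives, as were other scalings, other filters and leaving out each library. Levels per length used GENCODE M21 exons. Depth was 6702948 to 10447101 counts per library. Named genes of a list were the up to 4 largest changes passing the threshold in the comparison described, plus the 3 nearest profiles of each factor and the defining markers. Snai3, Dcn, Des, Rgs5, Gsn, Col14a1 and Pi16, and Ibsp between the bleo groups, were named after their values were seen. The 9 factors and the gene lists were chosen with earlier results of these data known. One gene of the lists is not reported here by name.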

Additional observations from a re-analysis of the deposited data

Results flagged for a closer look

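For 5 factors the effect of bleo differed between the libraries labelled Pear1-/- and WT, by edgeR's test of the difference itself, where 17.8% of all genes were called upward and 19.3% downward. The bleo effect in Pear1-/- minus that in WT was 1.42 for Snai1, 0.83 for Prrx1 and 0.75 for Runx2 on the log2 scale, and -0.77 for Runx1 and -0.39 for Zeb2. The Zeb2 value did not pass with upper-quartile scaling (adjusted p = 0.0802) or library totals alone (0.269). The leukocyte marker sum was 26251 to 26588 CPM in WT bleo and 11083 to 11323 in Pear1-/- bleo, and its part in the Runx1 and Zeb2 values was not tested. Col1a1 and Acta2 were higher in Pear1-/- bleo than in WT bleo (1.73 and 1.52 on the log2 scale), and their part in the Snai1, Prrx1 and Runx2 values was not tested. The library labelled WT vehicle 2 differed from the Pear1-/- vehicle libraries by a chi-square per degree of freedom of 1.73 to 2.67. From WT vehicle libraries 1 and 3 it differed by 21.2 and 21.8. WT vehicle libraries 1 and 3 held 20895 and 20943 genes with 1 to 20 counts, against 16194 in WT vehicle 2.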

How the results depend on the processing

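Of 745 alternative fold changes of the 9 factors, 703 kept their direction and side of the threshold, 20 changed sign, 11 lost a call and 11 gained one. The replicate number as a block gave 8, 8, 7, 0 and 5 changed factors in the 5 comparisons, as without it, and same-numbered libraries did not deviate together (correlations -0.293 to 0.065). The vehicle comparison called 0 factors (1261 of 17418 genes), 1 with DESeq2 (898 of 40760), 2 with no filter (5676 of 40760), and 0 to 4 when 1 library was left out, 4 without the library labelled WT vehicle 2, where 11281 of 20405 genes were called, and 0 in the other cases, where 0 genes of the whole table were. Leaving out 1 library gave 6 to 8 in WT, 8 in Pear1-/-, 7 between the bleo groups and 5 to 6 for the interaction. The sign changes were all in values that had not passed. For Snai2 with bleo in Pear1-/- the value was -0.035 with upper-quartile scaling and -0.077 to 0.078 without 1 library. Under vehicle, Twist2 was 0.0014 with DESeq2, 0.091 with no filter, 8.11e-06 with a filter of 1 CPM in 3 libraries and -0.068 to 0.10 without 1 library. Zeb1 was -0.0031 with library totals alone and -0.072 without WT vehicle libraries 1 and 3, an alternative chosen after seeing the data. Zeb2 was 0.015 with no filter, 0.12 without those libraries and -0.11 to 0.041 without 1 library, and Prrx1 was -0.046 with library totals alone. The Zeb1 interaction was 0.032 with upper-quartile scaling, 0.10 with totals alone, 0.18 without WT vehicle libraries 1 and 3 and -0.25 to 0.025 without 1 library. The cause of these shifts was not tested. Totals alone moved the median of all genes by -0.15 under vehicle and 0.15 for the interaction, and upper-quartile scaling by -0.15 with bleo in WT. With the longest transcript as the length, 4 factors kept their place in the order of levels in WT and 5 in Pear1-/- under vehicle, and 5 in WT and 6 in Pear1-/- under bleo. Depth limited Twist1, at 1 to 21 reads per library.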
